A study of Homo sapiens with 6 samples.

Results

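PRICKLE1 and 9 further genes of the planar cell polarity pathway are described here across 6 messenger RNA libraries of MDA-MB-453, a human breast cancer cell line with luminal features. The 10 genes are PRICKLE1, PRICKLE2, PRICKLE3, VANGL1, VANGL2, CELSR1, CELSR2, CELSR3, SCRIB and PTK7. They were taken by their symbols from a table of 36517 genes, and 9 of them were among the 19628 genes with enough reads to be tested. PRICKLE1 was chosen by its measured fall between these same libraries, so its values are given as a description and without a p-value. The other 9 genes were chosen by their family and pathway roles, with earlier results of these data known. One group of 3 libraries came from cells that had received a lentivirus with a negative-control hairpin (control), and the other 3 came from cells that had received a lentivirus with a hairpin against tRF-1-Ser (shtRF). All 6 were collected at day 3 and carry no other labelled treatment. tRF-1-Ser is a small RNA released from the 3′ end of a serine tRNA precursor, and the comparison asked which transcripts differed when its level was lowered. These libraries do not measure small RNAs, so the knockdown itself was not examined here. The study describes its sequencing replicates as biological and the cells as stably transduced. Whether each replicate was a transduction of its own or a culture of 1 transduced population is not given in the sources used here, so the p-values measure the spread between these libraries. RNA was extracted from whole cultures, so a loss of cells that express a gene and a lower level per cell cannot be told apart.

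Planar cell polarity is the alignment of cells within the plane of a tissue, and it rests on protein complexes that gather on opposite sides of each cell. CELSR cadherins bridge neighbouring cells, the transmembrane VANGL proteins recruit the cytoplasmic LIM-domain PRICKLE proteins on one side, and Frizzled receptors with Dishevelled stand on the other. The pathway is known for convergent extension, neural tube closure and hair orientation, and in carcinoma cells its components have been linked to migration.

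PRICKLE1 is encoded on the minus strand of chromosome 12 at chr12:42456754-42590355 (GRCh38, as in the deposited table), with 6785 exonic bases. Exons of the plus-strand noncoding gene RP11-328C8.4 cover 1858 of these bases, or 27.4% of the PRICKLE1 exons and 66.6% of the 2791 exonic bases of RP11-328C8.4 itself. Exons of PPHLN1, also on the plus strand, cover 438 bases (6.46% of PRICKLE1), and with both neighbours 1946 exonic bases of PRICKLE1 are shared. In its coding transcript, as annotated by GENCODE, the shared bases lie in exons 7 and 8 of 8 and take 1412 of its 2493 coding bases (56.6%) and 534 untranslated bases. PRICKLE2, on the minus strand at chr3:64093867-64445476 with 8726 exonic bases, had the same arrangement. PRICKLE2-AS1 covers 3101 of its exonic bases (35.5%) and PRICKLE2-AS3 covers 184 (2.11%), which in its coding transcript takes 1056 of 2700 coding bases (39.1%) and 2229 untranslated bases in exons 3 and 9 of 9. The other 8 genes shared 0 exonic bases with any gene of the table. The libraries were made with a kit that keeps strand, but whether strand was used in counting is not given in the sources used here, so reads of a gene and of its opposite-strand partner cannot be told apart.

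**Figure D1:**
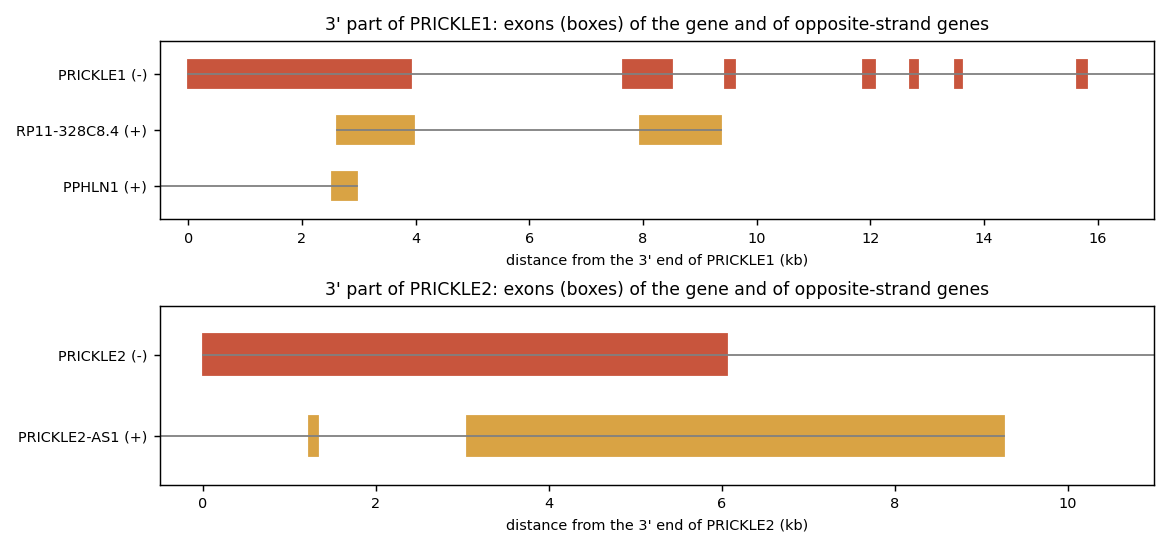
Exons (boxes) at the 3′ ends of PRICKLE1 and PRICKLE2 and of genes on the opposite strand, with distance from the 3′ end of each PRICKLE gene in kb on the x axis. Exons of RP11-328C8.4 overlap both of the last exons of PRICKLE1, and one long exon of PRICKLE2-AS1 runs across the 5′ portion of the last exon of PRICKLE2.

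The edge of each overlap shows how the shared stretch cuts into coding sequence. Both lines give the minus strand from 5′ to 3′ as in the GENCODE transcripts, and capitals mark the 90 bases that are also exonic, in complement, in the opposite-strand gene. For PRICKLE1 the stretch is chr12:42464611-42464790 within exon 7, where the shared part ends. For PRICKLE2 it joins the end of exon 8 at chr3:64146830-64146919 to the start of exon 9 at chr3:64099836-64099925, where the shared part begins. A read that falls in the capitals could have come from either strand, and a read in the lower-case letters has no annotated partner.
PRICKLE1 exon 7 edge: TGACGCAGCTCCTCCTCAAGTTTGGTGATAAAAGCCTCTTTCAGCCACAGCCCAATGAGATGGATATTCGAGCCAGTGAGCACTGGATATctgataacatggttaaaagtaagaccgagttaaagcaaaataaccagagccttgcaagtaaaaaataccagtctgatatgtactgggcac
PRICKLE2 exon 8 to 9 junction: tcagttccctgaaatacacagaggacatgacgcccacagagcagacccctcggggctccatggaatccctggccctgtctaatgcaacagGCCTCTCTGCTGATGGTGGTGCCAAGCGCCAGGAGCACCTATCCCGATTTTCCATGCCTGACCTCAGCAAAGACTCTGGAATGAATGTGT
Over the whole overlaps, the transcript of RP11-328C8.4, which GENCODE lists as AC079601.1, was complementary to that of PRICKLE1 at 1858 of 1858 bases, and the transcript of PRICKLE2-AS1 to that of PRICKLE2 at 3101 of 3101 bases.

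The 6 libraries held 63541413 to 78917459 counts. Levels are given as CPM, counts scaled to a common library size with TMM factors, which lay between 0.961 and 1.03. Over all tested genes, the median log2 fold change of shtRF against control was -0.0025. Markers of the luminal identity of the line (ERBB2, KRT8, KRT18, EPCAM, FOXA1, SPDEF and GATA3) were present in every library, the lowest being SPDEF with 4871 to 6366 counts. These markers did not move together. KRT8, an epithelial keratin, was at 1557 CPM in control and 2691 CPM in shtRF libraries, and KRT18 at 386 and 601 CPM. ERBB2 fell from 406 to 356 CPM (adjusted p = 0.0114, edgeR) and GATA3 from 261 to 237 CPM (adjusted p = 0.0397, edgeR). EPCAM, FOXA1 and SPDEF did not pass an adjusted p of 0.05 in the edgeR fit. Of 10 markers of fibroblasts, endothelium and blood cells, 9 were in the table, and DCN and CD3E had at most 3 counts in every library. The same markers summed to 30.0 to 35.6 CPM in control and 20.8 to 21.6 CPM in shtRF libraries, nearly all of it COL1A1, which fell from 32.2 ± 2.87 to 20.9 ± 0.329 CPM (SD, n = 3). The part of these marker differences in the results below was not tested.

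PRICKLE1 was far lower in the shtRF libraries, whereas PRICKLE2 was higher in them and PRICKLE3 differed by less than the spread between replicates. PRICKLE1 is a scaffold that binds VANGL and limits Dishevelled, and it also regulates focal adhesion turnover. The control libraries held 654, 756 and 754 PRICKLE1 counts, against 62, 44 and 45 with the shtRF hairpin. On the CPM scale these were levels of 10.1, 10.0 and 9.45 against 0.883, 0.641 and 0.726. Every shtRF library lay far below every control library. The mean level was 9.84 ± 0.339 CPM in control and 0.750 ± 0.123 CPM with shtRF (SD, n = 3). PRICKLE1 was thus 13.1-fold lower, at -3.71 ± 0.142 (SE) on the log2 scale. That was the 15th lowest log2 fold change of the 19628 tested genes, and the 5th lowest of the 13189 genes with a mean of at least 2 CPM. These values were used to choose PRICKLE1 and carry no test.

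**Figure D2:**
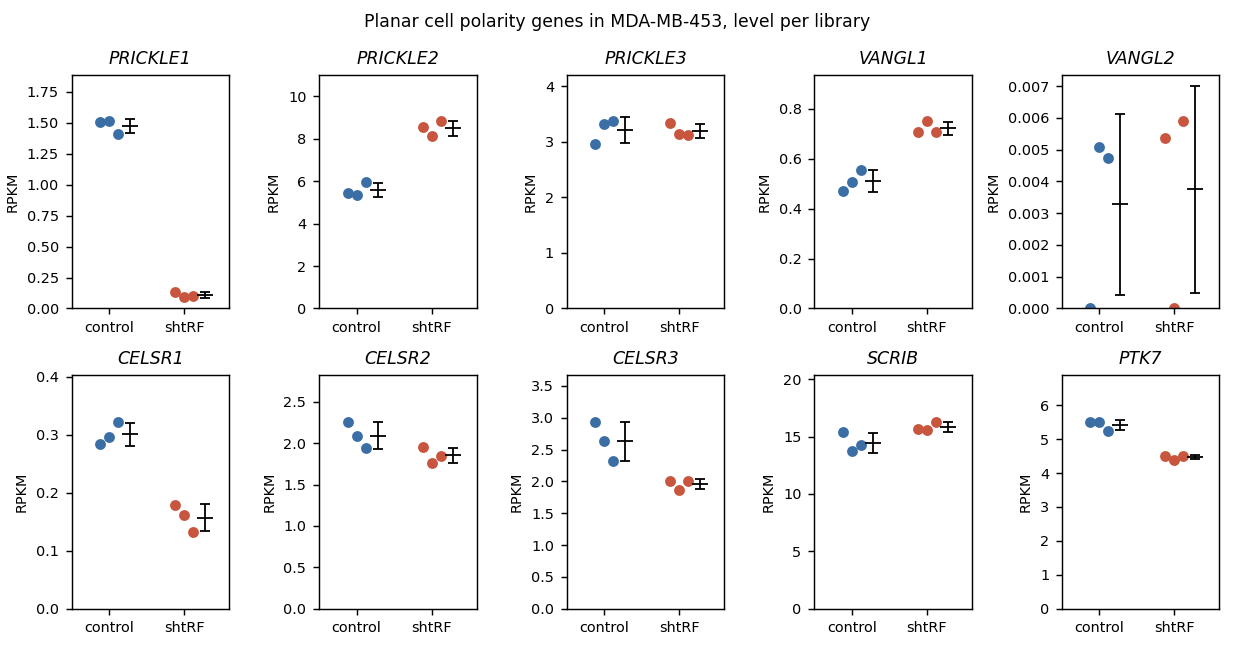
Level of each of the 10 genes in RPKM (the count divided by exonic length and by the library total) in the 3 control and 3 shtRF libraries, with points for libraries and bars for the mean ± SD, each panel on its own scale from 0. PRICKLE1 stood at 1.41 to 1.51 RPKM in control and 0.0907 to 0.131 RPKM in shtRF libraries, and PRICKLE2 at 5.36 to 5.97 against 8.11 to 8.82 RPKM.

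RP11-328C8.4, the opposite-strand partner of PRICKLE1, went the same way. Its counts were 213, 313 and 264 in control and 16, 29 and 15 in shtRF libraries, which made 32.6%, 41.4% and 35.0% of the PRICKLE1 count in control and 25.8%, 65.9% and 33.3% in shtRF. The log2 fold change of RP11-328C8.4 was -3.58 ± 0.237 (SE), from 3.58 to 0.297 CPM. If PRICKLE1 reads lay evenly along its exons, 179, 207 and 206 of the control counts would fall in the stretch shared with RP11-328C8.4, each below the count that RP11-328C8.4 received in that library. Per kilobase, the levels of the pair were also alike, with 1.19, 1.52 and 1.20 RPKM for RP11-328C8.4 in the control libraries beside 1.51, 1.51 and 1.41 RPKM for PRICKLE1. In the shtRF libraries RP11-328C8.4 was at 0.0823, 0.145 and 0.0846 RPKM beside 0.131, 0.0907 and 0.104 RPKM for PRICKLE1. With every read of RP11-328C8.4 taken away from PRICKLE1, 441, 443 and 490 counts were left in control and 46, 15 and 30 in shtRF libraries. The difference was then -3.78 on the log2 scale. That subtraction takes every read of RP11-328C8.4 as also counted for PRICKLE1, which was not tested. PPHLN1, which encodes periphilin, has most of its exons outside the overlap, and it rose slightly, by 0.17 ± 0.059 on the log2 scale (adjusted p = 0.0245, edgeR), with 36.5 ± 1.78 CPM in control against 41.1 ± 0.849 CPM.

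**Figure D3:**
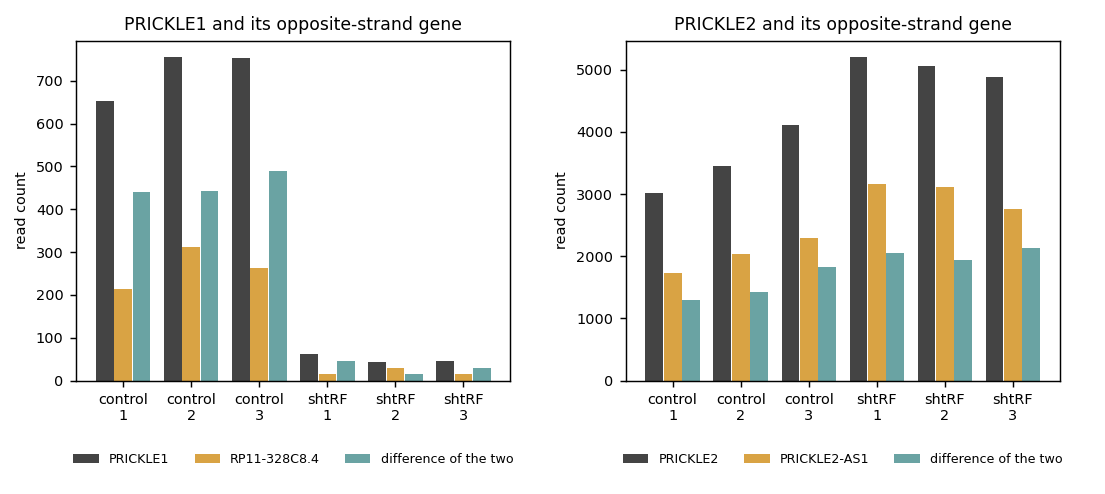
Read counts per library of PRICKLE1 and RP11-328C8.4 (left) and of PRICKLE2 and PRICKLE2-AS1 (right), with the count left after subtraction of the partner. All 3 bars of the PRICKLE1 pair were lower in every shtRF library than in any control library, and all 3 bars of the PRICKLE2 pair were higher.

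The nearest relative, PRICKLE2, moved in the opposite direction. PRICKLE2 has the same PET and LIM domain layout as PRICKLE1 and is best known from neurons. Its levels were 46.5, 45.6 and 51.5 CPM in control and 74.1, 73.7 and 78.8 CPM in shtRF libraries, and the groups did not overlap. It rose 1.58-fold, by 0.66 ± 0.059 on the log2 scale (adjusted p = 8.80e-09, edgeR). PRICKLE2-AS1 rose beside it by 0.71 ± 0.059 on the log2 scale, with 27.4 CPM in control against 44.9 CPM (adjusted p = 2.31e-09, edgeR), and its counts made 55.7% to 58.9% of the PRICKLE2 count in control and 56.3% to 61.6% in shtRF libraries. After the PRICKLE2-AS1 counts were taken away from PRICKLE2, a step added after the data had been seen, 1293, 1418 and 1823 counts were left in control and 2050, 1940 and 2137 in shtRF libraries. PRICKLE2 then rose by 0.57 on the log2 scale (adjusted p = 9.15e-06, edgeR). Of the exonic bases of PRICKLE2-AS1, 47.7% are shared with PRICKLE2. The subtraction takes every read of PRICKLE2-AS1 as also counted for PRICKLE2, which was not tested. PRICKLE2-AS3, with the smaller overlap, rose by 0.44 ± 0.164 on the log2 scale (adjusted p = 0.0377, edgeR).

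PRICKLE3, the X-linked member of the family at X:49175264-49186528 on the minus strand, has been tied to mitochondrial ATP synthase as well as to polarity. Its levels were 9.27, 10.3 and 10.6 CPM in control and 10.6, 10.4 and 10.2 CPM in shtRF libraries, and the groups overlapped. The log2 fold change was 0.04 ± 0.088, with a 95% interval from -0.14 to 0.23 (adjusted p = 0.735, edgeR).

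Per exonic length, PRICKLE1, PRICKLE2 and PRICKLE3 together did not lose level. Their summed RPKM was 9.88, 10.2 and 10.7 in control and 12.04, 11.3 and 12.04 in shtRF libraries, so that every shtRF library lay above every control library. PRICKLE1 made up 15.3%, 14.8% and 13.1% of that sum in control libraries, against 1.09%, 0.801% and 0.867% under shtRF. The share of PRICKLE2 went from 54.3% ± 1.55 to 72.0% ± 1.11 and that of PRICKLE3 from 31.3% ± 1.34 to 27.1% ± 1.04 (SD, n = 3). By whole counts, PRICKLE2 was thus the most abundant of the 3 in both groups. These shares use each gene's whole count, reads in the shared stretches included, and no test was run on them. The sum, the shares and the order were not computed with partner counts taken away and could differ then. The sum leaves out PRICKLE4, which is not among the 10 genes and went from 1.51 ± 0.107 to 1.04 ± 0.164 RPKM (SD, n = 3).

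**Figure D4:**
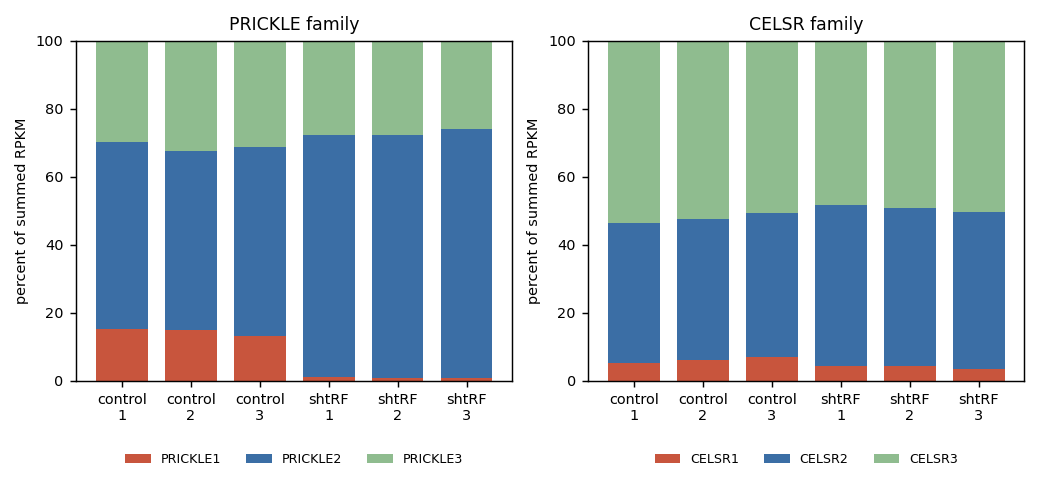
Share of the summed RPKM of PRICKLE1, PRICKLE2 and PRICKLE3 (left) and of the CELSR genes (right) that each took in every library, in percent. PRICKLE1 shrank from between 13.1% and 15.3% to about 1% of the sum, which leaves out PRICKLE4. The CELSR family kept CELSR2 and CELSR3 as its main members in all 6 libraries.

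The CELSR cadherins, the adhesive bridge of the pathway, were lower or within the spread of the replicates. CELSR1 (chr22:46360834-46537170, minus strand) is the member best known for epithelial polarity and skin. Its counts were 232, 280 and 326 in control and 159, 148 and 107 in shtRF libraries, or levels of 3.57, 3.71 and 4.08 against 2.26, 2.155 and 1.725 CPM. All shtRF libraries lay below all control libraries. CELSR1 fell 1.85-fold (log2 fold change -0.88 ± 0.153, adjusted p = 7.23e-05, edgeR), the largest change among these genes after PRICKLE1.

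CELSR3 (chr3:48636469-48662915, minus strand), known for axon guidance, fell as well, though less. Its levels were 40.2, 35.7 and 31.9 CPM in control and 27.6, 27.1 and 28.5 CPM in shtRF libraries. The control libraries were spread more widely than the shtRF libraries, and the groups did not overlap. The fall was 1.29-fold (log2 fold change -0.37 ± 0.073, adjusted p = 2.78e-04, edgeR). CELSR2 (chr1:109250019-109275750, plus strand), which is found in ependymal cilia and neurons, was at 27.4, 25.1 and 23.6 CPM in control and 23.9, 22.6 and 23.3 CPM in shtRF libraries. These groups overlapped, and the log2 fold change of -0.12 ± 0.070 (95% interval -0.27 to 0.02) did not pass the threshold (adjusted p = 0.174, edgeR). The summed level of the CELSR genes went from 5.03 ± 0.451 to 3.97 ± 0.167 RPKM (SD, n = 3). CELSR1 contributed little to it, with a share of 6.04% ± 0.941 in control and 3.96% ± 0.568 in shtRF libraries.

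Of the VANGL proteins, the multipass membrane partners of PRICKLE, VANGL1 alone was measurable. VANGL1 (chr1:115641953-115698224, plus strand) had counts of 273, 338 and 398 in control and 446, 486 and 408 in shtRF libraries. The corresponding levels were 4.197, 4.475 and 4.99 against 6.35, 7.08 and 6.58 CPM, with every shtRF library above every control library. VANGL1 rose 1.46-fold (log2 fold change 0.55 ± 0.113, adjusted p = 4.89e-04, edgeR). VANGL2, the member most often studied in neural tube closure, had 0, 2 and 2 counts in control and 2, 0 and 2 in shtRF libraries. All 6 counts lie under 3, the limit that a count of 0 allows, so VANGL2 was not detectable at this depth and no fold change is given. That limit covers counting error only.

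SCRIB and PTK7 stand beside the core proteins. PTK7 (chr6:43076268-43161719, plus strand) is a catalytically inactive receptor-like kinase that takes part in Wnt signalling and cell movement. Its levels were 48.9, 48.5 and 46.8 CPM in control and 40.4, 41.2 and 41.7 CPM in shtRF libraries, without overlap, and replicates lay close together. PTK7 fell 1.17-fold (log2 fold change -0.23 ± 0.055, adjusted p = 0.00224, edgeR).

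SCRIB (chr8:143790920-143815379, minus strand), the scaffold of the basolateral Scribble complex and a binding partner of VANGL2, was the most abundant of the 10 genes. Its levels were 94.9, 83.7 and 88.3 CPM in control and 97.5, 101 and 105 CPM in shtRF libraries. The groups did not overlap, but the highest control and the lowest shtRF library were close. The rise was 1.14-fold (log2 fold change 0.18 ± 0.057, 95% interval 0.07 to 0.30, adjusted p = 0.0122, edgeR). It did not pass the threshold without control replicate 2 (adjusted p = 0.102, edgeR) or without shtRF replicate 3 (adjusted p = 0.0726, edgeR), nor with limma on log2(RPKM + 1) (adjusted p = 0.0950) or log2(RPKM + 0.1) (adjusted p = 0.0943).

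Across the 10 genes, 7 of the 9 tested passed an adjusted p of 0.05 in the edgeR fit, beside 39.5% of all tested genes. In the shtRF libraries 3 were higher (PRICKLE2, VANGL1 and SCRIB), beside 20.6% of all tested genes, and 4 were lower (PRICKLE1, CELSR1, CELSR3 and PTK7), beside 18.9%. The groups did not overlap for the same 7 genes, beside 48.7% of all tested genes. These are counts over genes that were picked with their values known, 1 of them for its fall, and nothing is read from them about the pathway. Without PRICKLE1 the count was 3 higher, 3 lower and 2 not past the threshold, with a median log2 fold change of -0.04.

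The order of the levels per exonic length changed mainly through PRICKLE1. In the control libraries the mean levels ran from SCRIB (14.5 ± 0.872 RPKM, SD, n = 3) through PRICKLE2 (5.58 ± 0.337), PTK7 (5.43 ± 0.150), PRICKLE3 (3.21 ± 0.227), CELSR3 (2.63 ± 0.308), CELSR2 (2.09 ± 0.163), PRICKLE1 (1.48 ± 0.0588) and VANGL1 (0.511 ± 0.0429) to CELSR1 (0.301 ± 0.0199). PRICKLE2 and PTK7 overlapped in that order. No other neighbours did, although the lowest PRICKLE3 library (2.95 RPKM) and the highest CELSR3 library (2.94 RPKM) nearly met. In the shtRF libraries SCRIB (15.8 ± 0.405 RPKM) and PRICKLE2 (8.497 ± 0.358) led, followed by PTK7 (4.47 ± 0.0699), PRICKLE3 (3.20 ± 0.125), CELSR3 (1.96 ± 0.0751), CELSR2 (1.85 ± 0.0941), VANGL1 (0.722 ± 0.0249), CELSR1 (0.157 ± 0.0237) and PRICKLE1 (0.109 ± 0.0205). CELSR3 and CELSR2 overlapped there, and the highest PRICKLE1 library and the lowest CELSR1 library were equal to 3 digits (0.131 RPKM). PRICKLE1 thus stood behind VANGL1 and CELSR1 in the shtRF libraries and ahead of both in the control libraries. These levels also use whole counts, with reads in the shared stretches of PRICKLE1 and PRICKLE2 included.

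The other genes of the pathway were taken from 5 lists, 61 genes in all, of which 52 were tested. The lists were written from knowledge of the pathway, but with earlier results of these data known. Of these, 15 were higher and 10 lower in shtRF libraries at an adjusted p under 0.05 (edgeR) and 27 did not pass, beside 20.6% higher and 18.9% lower among all tested genes. The median log2 fold change was 0.07, beside -0.0025 over all tested genes. The counts of each list below are likewise to be set against 20.6% higher, 18.9% lower and 39.5% in either direction, and nothing particular to a list is read from them. Differences in both directions were present in 4 of the lists, and the Fat and Dachsous list had none past the threshold.

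**Figure D5:**
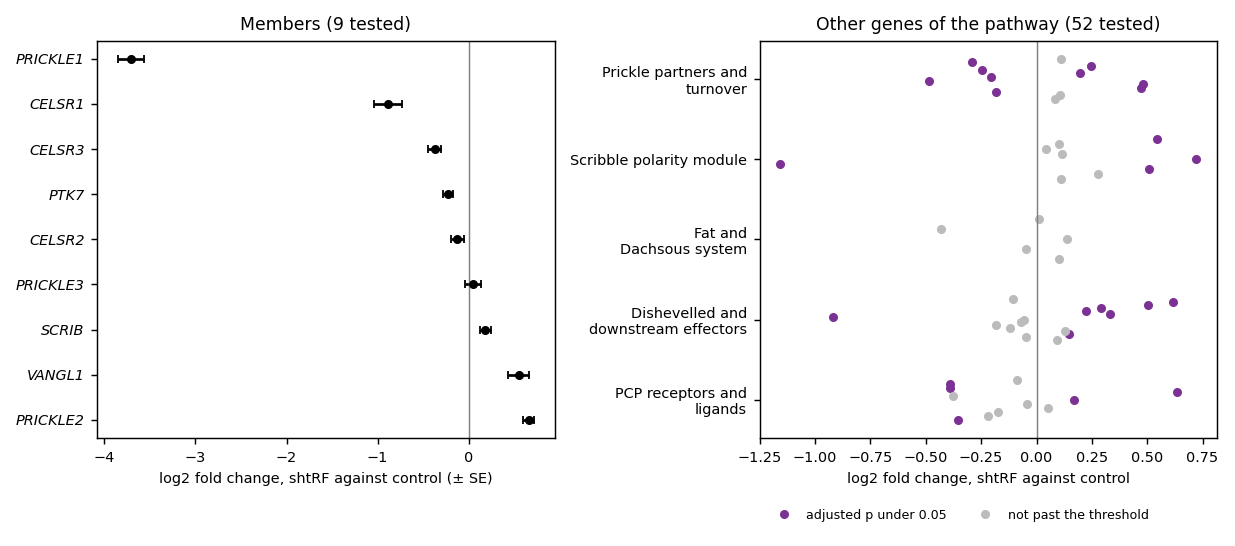
Log2 fold change of shtRF against control with its SE for the 9 tested genes (left) and, without error bars, for the 52 tested genes of the 5 pathway lists (right), coloured by whether the edgeR adjusted p was under 0.05. PRICKLE1 lies at -3.71, away from all others, and every pathway list except the Fat and Dachsous system has coloured points on both sides of 0.

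Among receptors and ligands, 2 of the 11 tested genes rose and 3 fell (beside 20.6% and 18.9% of all tested genes) and 6 did not pass, with a median log2 fold change of -0.17. FZD8, a Frizzled receptor for Wnt proteins, was at 2.61, 2.73 and 2.76 CPM in control and 4.21, 3.79 and 4.58 CPM in shtRF libraries, without overlap. It rose by 0.63 ± 0.137 on the log2 scale (adjusted p = 7.39e-04, edgeR). FZD6, the Frizzled receptor of hair and claw polarity, had the highest level of the list (22.6 RPKM over the 6 libraries) and rose by 0.17 ± 0.052 on the log2 scale, with 86.5 ± 3.06 CPM in control against 97.4 ± 2.06 CPM (adjusted p = 0.0121, edgeR). That call was lost without control replicate 1 (adjusted p = 0.0640), without control replicate 2 (adjusted p = 0.0614) and without shtRF replicate 2 (adjusted p = 0.0566). The 3 genes that fell were FZD1 (log2 fold change -0.36), ROR2 (-0.39) and RYK (-0.39), of which ROR2 and RYK are Wnt receptors with kinase-like domains.

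Among Dishevelled and its effectors, 6 of the 15 tested genes rose and 1 fell (beside 20.6% and 18.9% of all tested genes) and 8 did not pass, with a median log2 fold change of 0.09. ROCK2, a kinase that activates actomyosin downstream of RHOA, was at 8.44, 8.88 and 8.19 CPM in control and 13.04, 11.5 and 11.6 CPM in shtRF libraries. All shtRF libraries were higher, and ROCK2 rose by 0.50 ± 0.089 on the log2 scale (adjusted p = 9.85e-05, edgeR). RHOA, the small GTPase with the highest level of the list (75.1 RPKM), rose by 0.22 ± 0.051 on the log2 scale, with 179 ± 5.25 CPM in control against 209 ± 3.68 CPM (adjusted p = 0.00145, edgeR). RAC1 (log2 fold change 0.33), ROCK1 (0.29) and CDC42 (0.15), which also act on the actin cytoskeleton, rose too. The gene that fell was INTU, a polarity effector needed for primary cilia. INTU was at 7.13, 6.96 and 5.62 CPM in control and 3.72, 3.77 and 2.92 CPM in shtRF libraries, without overlap, and fell by 0.92 ± 0.133 on the log2 scale (adjusted p = 8.40e-06, edgeR). RSG1, a small GTPase of the same ciliary effector complex, was at 1.88, 2.17 and 1.52 CPM in control and 2.78, 2.36 and 3.40 CPM in shtRF libraries and rose by 0.62 ± 0.182 (adjusted p = 0.00972, edgeR). Its call was lost without shtRF replicate 3 (adjusted p = 0.0787, edgeR) and with limma on log2(RPKM + 1) (adjusted p = 0.0563) or log2(RPKM + 0.1) (adjusted p = 0.0538). The Dishevelled genes DVL1, DVL2 and DVL3 did not pass the threshold, with log2 fold changes of -0.12, -0.18 and -0.07.

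In the Fat and Dachsous list, which holds the giant cadherins of a parallel polarity system, none of the 5 tested genes passed the threshold in the edgeR fit, beside 39.5% of all tested genes. The count was also 0 at an unadjusted p under 0.05, with DESeq2 and with limma on either RPKM scale. For these settings the share over all tested genes was not computed. FAT2 and DCHS1 had few reads, with 10 to 23 and 8 to 28 counts per library. FAT4 had a log2 fold change of -0.43 with a 95% interval from -0.94 to 0.08. Changes of these genes could thus have been missed. FAT1 had the highest level there (8.97 RPKM), at 147 ± 2.01 CPM in control and 143 ± 5.50 CPM in shtRF libraries (log2 fold change -0.05 ± 0.052, adjusted p = 0.521).

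The Scribble module, the partners of SCRIB in apicobasal polarity, had 3 of 9 tested genes higher and 1 lower (beside 20.6% and 18.9% of all tested genes) and 5 not past the threshold, with a median log2 fold change of 0.12. The DLG genes encode scaffolds of the MAGUK family, and those past the threshold went in both directions. DLG1 (log2 fold change 0.11, adjusted p = 0.0930, edgeR) and DLG2 (0.28, adjusted p = 0.120, edgeR) did not pass. DLG5 was at 182, 167 and 171 CPM in control and 274, 286 and 298 CPM in shtRF libraries and rose by 0.72 ± 0.055 on the log2 scale (adjusted p = 6.78e-10, edgeR), although 18.03% of its exonic bases are shared with other genes. DLG3 had the highest level of the list (25.6 RPKM), with 166, 166 and 167 CPM in control and 232, 243 and 234 CPM in shtRF libraries, and rose by 0.51 ± 0.051 (adjusted p = 4.77e-08, edgeR). DLG4, which encodes the postsynaptic scaffold PSD-95, went the other way, from 10.9, 9.77 and 9.17 CPM in control to 4.21, 3.82 and 5.37 CPM in shtRF libraries. It fell by 1.16 ± 0.120 on the log2 scale (adjusted p = 8.55e-08, edgeR). NOS1AP, an adaptor that binds SCRIB and VANGL, was at 2.40, 2.41 and 2.59 CPM in control and 3.40, 2.96 and 4.45 CPM in shtRF libraries and rose by 0.54 ± 0.160 (adjusted p = 0.00948, edgeR). NOS1AP did not pass without shtRF replicate 3 (adjusted p = 0.1002, edgeR), nor with limma on log2(RPKM + 1) (adjusted p = 0.0918) or log2(RPKM + 0.1) (adjusted p = 0.110).

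The list of PRICKLE partners and turnover genes also held the family member PRICKLE4 and SEC24B, which encodes a COPII coat protein. Of its 12 tested genes, 4 rose and 5 fell (beside 20.6% and 18.9% of all tested genes) and 3 did not pass, with a median log2 fold change of 0.10. None reached a log2 change of 0.5 in size. MINK1, a kinase that phosphorylates PRICKLE, had a log2 fold change of 0.47 and PHLDB2, an anchor of microtubules at the cell cortex, one of 0.48, and both rose. Of the SMURF ubiquitin ligases, which degrade PRICKLE1, SMURF2 fell (log2 fold change -0.29, adjusted p = 0.00124, edgeR) without overlap. SMURF1 rose (log2 fold change 0.25, adjusted p = 0.0442, edgeR), but its groups overlapped and 9.37% of its exonic bases are shared with other genes. REST, a repressor whose nuclear export involves PRICKLE1, fell by 0.20 on the log2 scale. USP9X, a deubiquitinase of PRICKLE and the gene of highest level in the list (15.5 RPKM), was at 208 ± 7.35 CPM in control and 225 ± 4.49 CPM in shtRF libraries and did not pass (log2 fold change 0.11 ± 0.052, adjusted p = 0.0968, edgeR). PRICKLE4, with 21.4% of its exonic bases shared with other genes, fell by 0.48 on the log2 scale. The remaining genes past the threshold were RICTOR (log2 fold change 0.20), CLASP2 (-0.18) and SEC24B (-0.25).

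Outside the pathway, the genes whose pattern over the 6 libraries lay nearest to that of PRICKLE1 were found among 13187 genes with a mean of at least 2 CPM. The measure was the Euclidean distance between log2(CPM + 1) values, each less its own mean over the 6 libraries. The nearest was SCD, a fatty acid desaturase, at a distance of 0.268, which went from 1160 to 167 CPM (log2 fold change -2.80). It was followed by the desmosomal cadherin gene DSG2 (distance 0.279, 55.7 to 8.98 CPM, log2 fold change -2.63) and by MEF2C, a transcription factor of muscle and neurons (0.401, 10.1 to 0.623 CPM, -4.03). ASS1, an enzyme of arginine synthesis, lay at 0.408 (20.5 to 1.96 CPM, -3.39) and DSG2-AS1, the opposite-strand neighbour of DSG2, at 0.517 (11.5 to 1.58 CPM, -2.86). Whether exons of DSG2 and DSG2-AS1 overlap was not computed, so the same reads may lie behind both entries. With only 2 groups of libraries the distance ranks mostly the size of the difference between groups, and these genes are named as a description. That size is on the log2(CPM + 1) scale, which shrinks the fall of PRICKLE1, at 0.750 CPM in shtRF libraries. Abundant genes with smaller log2 fold changes, such as SCD and DSG2, can therefore rank nearest.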

How the data were processed

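MDA-MB-453 mRNA was sequenced as read pairs in 3 control and 3 shtRF libraries, grouped by their titles. The authors deposited raw read counts per gene with exon coordinates and lengths, and a table of RPKM values, of which the copy used here was partial. Over 29946 values, 100% of the deposited RPKM equalled count divided by length and library total (relative tolerance 1e-04), so RPKM was recomputed for all genes. The submitters' processing notes name GRCh38, Trimmomatic 0.36, featureCounts, Subread 1.5.1 and edgeR 3.12.1; the aligner, annotation release and strand setting are not given in the sources used here. Between 74.2% and 77.1% of counts of 1 to 4 were even in each library, as when both mates of a pair are counted.

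Counts were tested with edgeR 4.0.16 in R 4.3.3 (filterByExpr with a minimum count of 10, TMM, glmQLFit and glmQLFTest, group as the only term), with Benjamini-Hochberg adjustment over 19628 genes and a threshold of 0.05. Replicates varied with a common dispersion of 0.00572 (coefficient of variation 7.56%). Fold changes carry SE, levels carry SD over 3 libraries. In simulated counts with 200 changed genes, edgeR recovered 199 with 23 false calls among 19293 genes. The 23 false calls stand beside 199 recovered genes, and the 199 are not split by size of change. Recovery of differences as small as those of SCRIB (log2 fold change 0.18) and PTK7 (-0.23) was not tested separately. Recovery and false calls where 39.5% of the tested genes are called, as in these libraries, were not tested. As alternatives, the fit was repeated with RLE or upper quartile scaling, without the filter, with DESeq2 1.42.0, with limma 3.58.1 on log2(RPKM + 1) and log2(RPKM + 0.1), with counts halved, with each library left out, with a replicate block and after subtraction of the opposite-strand partner.

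The members and lists were chosen with earlier results of these data known. Named genes were all 10 members, list genes past the threshold with a log2 change of at least 0.5 in size, the gene of highest RPKM per list, genes sharing exonic bases with a member, and the 5 nearest patterns to PRICKLE1. Other list genes are named to complete a count, after their values were seen. Exon overlaps were computed from the coordinates in the count table, and coding bases and sequences were read from GENCODE 29. A further identity marker is not reported here.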

Additional observations from a re-analysis of the deposited data

How the results depend on the processing

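The fall of PRICKLE1 kept its direction under every alternative. On counts its log2 fold change lay between -3.85 (without shtRF replicate 1) and -3.60 (without shtRF replicate 2). It was smaller with limma on log2(RPKM + 1), at -1.16, and on log2(RPKM + 0.1), at -2.92, because a pseudocount compresses the change of a gene near 0. The number of members higher was 2 to 3 and the number lower was 4 throughout. Leaving out 1 library gave 10 to 14 pathway genes higher and 7 to 10 lower. With the replicate number as a block, the difference of PRICKLE1 was -3.71, with 3 members higher and 4 lower, and 15 pathway genes higher and 10 lower. The share of all tested genes called was not computed for these alternatives. The counts of members and pathway genes can therefore not be set against it, and nothing is read from their ranges. Same-numbered libraries did not deviate together (correlations 0.0592, 0.0178 and 0.0174), so the numbers were not taken as pairs. Of the single genes, PRICKLE3 changed sign without ever passing the threshold, at -0.0043 and -0.0051 with limma and between -0.019 (without control replicate 1) and 0.086 when 1 library was left out. PRICKLE2, VANGL1, CELSR1, CELSR3 and PTK7 passed in all alternatives and CELSR2 in none. SCRIB passed in 10 of 14, with adjusted p from 0.00685 to 0.102. Subtraction of PRICKLE2-AS1 from PRICKLE2 was chosen after seeing the data. Where counts hold both mates of a pair, fewer fragments than counts lie behind the values, which bears most on VANGL2 and on PRICKLE1 in shtRF libraries.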
